A study of Mus musculus with 5 samples.

Results

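The nuclear factor I (NFI) family comprises the transcription factor genes Nfia, Nfib, Nfic and Nfix. All 4 members were found by symbol among the 17739 genes of the deposited table. Nfil3, a bZIP factor with a similar symbol, is not a member and was left out. RNA came from cerebellar medulloblastoma cells of Math1-Cre;Gli2A mice, which were given doxycycline (DOX) in the diet from embryonic day 0. Math1-Cre drives recombination in progenitors of granule neurons. The labels call GLI2, the main transcriptional activator of Sonic hedgehog signalling, active in every sample. All 5 samples share this genotype and treatment, so there was no control or second condition. Sample titles number them 1, 5, 8, 14 and 15, and the text follows those numbers. The labels give no ages and do not say whether the numbers stand for separate animals, so errors over the 5 tumours measure only how far these samples differ, which may in part be technical.

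NFI proteins bind DNA as dimers through a conserved amino-terminal domain, at palindromes whose core is TTGGC. In the cerebellum they act in granule neuron progenitors as these leave the cell cycle, migrate and mature, and in the wider nervous system they promote the formation of astroglia. The 4 proteins share the DNA-binding domain and differ mainly in the carboxy-terminal part, which activates or represses transcription.

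Because the members arose from a common ancestor, their messenger RNAs could in principle share reads. A stretch of 120 coding bases in the region for the DNA-binding domain shows how alike they are. It lies in exon 2 of the longest coding transcript of each gene in GENCODE M21 (GRCm38), and the bases that are the same in all 4 members are in capitals.
Nfia (chr4:97783153-97783272, plus strand): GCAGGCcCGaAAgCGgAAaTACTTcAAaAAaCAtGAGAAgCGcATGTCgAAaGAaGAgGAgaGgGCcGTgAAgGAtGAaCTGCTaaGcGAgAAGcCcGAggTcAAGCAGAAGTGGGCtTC
Nfib (chr4:82498579-82498698, minus strand): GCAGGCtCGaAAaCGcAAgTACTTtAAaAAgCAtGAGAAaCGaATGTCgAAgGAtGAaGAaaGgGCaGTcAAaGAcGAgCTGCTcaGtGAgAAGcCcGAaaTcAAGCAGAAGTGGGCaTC
Nfic (chr10:81420608-81420727, minus strand): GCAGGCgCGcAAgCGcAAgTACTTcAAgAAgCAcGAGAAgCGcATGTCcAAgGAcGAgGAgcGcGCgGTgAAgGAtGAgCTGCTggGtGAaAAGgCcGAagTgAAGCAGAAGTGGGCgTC
Nfix (chr8:84772125-84772244, minus strand): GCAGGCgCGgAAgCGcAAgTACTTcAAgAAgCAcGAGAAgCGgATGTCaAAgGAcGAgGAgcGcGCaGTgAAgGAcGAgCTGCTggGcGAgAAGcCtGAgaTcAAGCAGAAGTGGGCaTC
Of the 120 bases, 87 were the same in all 4 genes. Nfic and Nfix were the closest pair in this window, with 107 bases in common (89.2%), and Nfib and Nfic the most distant, with 95 (79.2%). Within it, Nfic and Nfix shared the longest identical run of any pair over all their annotated transcripts, 32 bases. No run of 50 bases was shared between any of the 6 pairs. The read length is not given in the sources used here, and a read longer than those runs would differ between the members at 1 base or more.

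Nfib and Nfix stood among the most abundant transcripts of these tumours. The values are on the deposited log2 scale, read here as regularised-log values, which adjust for library size and leave transcript length uncorrected. Nfib (GRCm38 chromosome 4, 82290173 to 82705750, protein coding), a factor of lung and brain development and of granule neuron maturation, was 15.36 in tumour 1, 15.34 in tumour 5, 15.23 in tumour 8, 15.32 in tumour 14 and 15.18 in tumour 15. Its mean was 15.29 ± 0.08 (SD, n = 5), and only 9 genes of the table had a higher mean. Those 9 were Eef1a1, Tuba1a, Hsp90ab1, Actb, Eef2, Tubb5, Nnat, Eif4g2 and Rn45s, named after their values were seen. They are genes for elongation and initiation factors, tubulins, actin, a chaperone, a small membrane protein and a ribosomal RNA precursor. This scale favours long transcripts, and the order of genes on it changes per length.

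Nfix (chromosome 8, 84699876 to 84800344, protein coding), which acts in neural stem cell quiescence and in granule neuron progenitors, was 15.30, 15.20, 15.26, 15.26 and 15.04 in tumours 1, 5, 8, 14 and 15. It averaged 15.21 ± 0.10 and ranked 12 by mean. Tumour 15 was the lowest, and the other 4 tumours lay close together. Nfia (chromosome 4, 97772734 to 98118874, protein coding), which promotes glial fate and granule neuron differentiation, was 14.23, 14.18, 14.04, 14.17 and 14.05 in the same order. Its mean was 14.13 ± 0.09, with 52 genes above it, and tumours 8 and 15 were the lower pair. Nfic (chromosome 10, 81396186 to 81455635, protein coding), best known for its part in tooth root formation, was 12.73, 12.80, 13.01, 12.83 and 12.54. It averaged 12.78 ± 0.17, with 392 genes above it, and was highest in tumour 8 and lowest in tumour 15. The values of Nfib and Nfix overlapped over the tumours on this scale, while those of Nfia and Nfic overlapped with no other member.

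**Figure D1:**
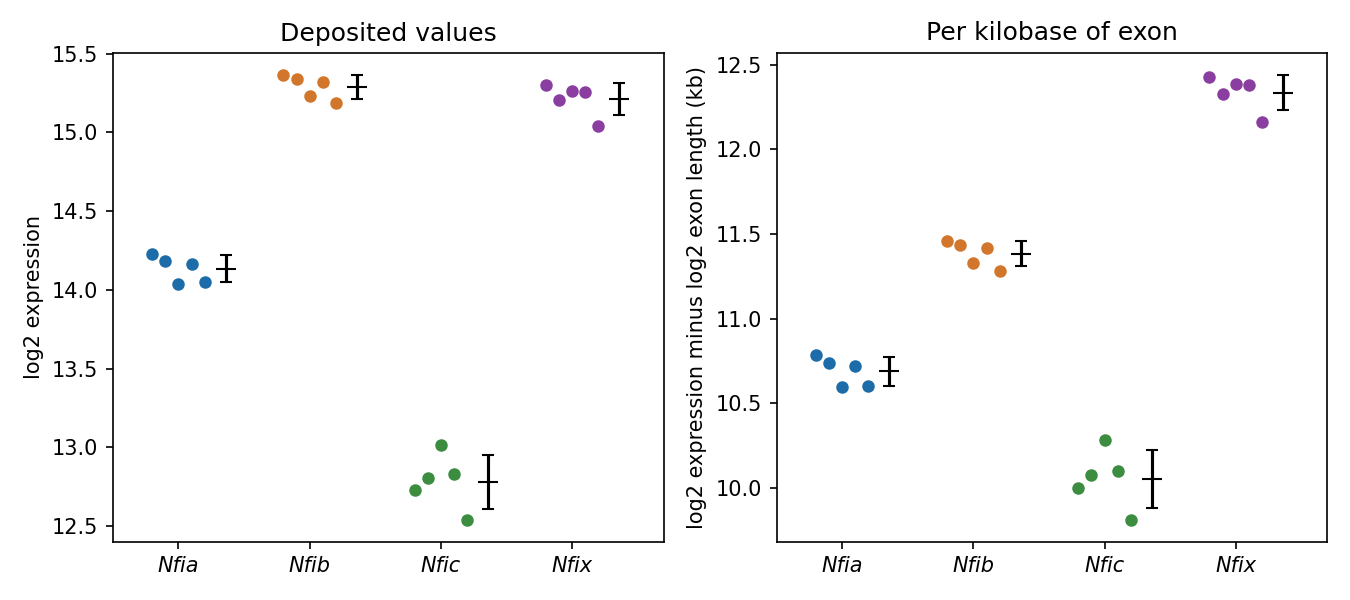
Expression of the NFI genes in 5 tumours, as deposited log2 values (left) and after subtracting log2 of the exon length in kilobases (right). Points are tumours 1, 5, 8, 14 and 15 from left to right within a gene, and bars are the mean ± SD; Nfib and Nfix overlap on the left, and Nfix lies above Nfib in every tumour on the right.

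Levels of different genes can be compared only per length, so log2 of the total exon length in kilobases was subtracted. The exons of Nfib cover 14957 bases and those of Nfia 10891, against 7351 for Nfix and 6630 for Nfic. On this per-kilobase log2 scale Nfix led with 12.34 ± 0.10 (SD, n = 5), followed by Nfib at 11.38 ± 0.08, Nfia at 10.69 ± 0.09 and Nfic at 10.05 ± 0.17. The median gene with a length stood at 6.48. Only 64 of 17302 genes exceeded Nfix per kilobase, while 188 exceeded Nfib, 400 Nfia and 747 Nfic. In the cell type marker lists, the transcription factor genes Jun (13.02 ± 0.29), Neurod1 (12.71 ± 0.08), Zic1 (12.57 ± 0.05), Fos (12.48 ± 0.33), Zic2 (12.41 ± 0.08) and Egr1 (12.36 ± 0.22) averaged above Nfix per kilobase. Fos, Jun and Egr1 are immediate early genes, and Zic1, Zic2 and Neurod1 mark the granule lineage. No member overlapped its neighbour in this order, and the order was the same in all 5 tumours.

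The family was then described as shares of its summed per-kilobase level, after conversion from log2 to a linear scale. Nfix supplied 49.5%, 48.0%, 49.9%, 49.1% and 48.1% in tumours 1, 5, 8, 14 and 15, a mean of 48.9% ± 0.84 (SD, n = 5). Nfib supplied 25.3% ± 0.82, between 24.0% in tumour 8 and 26.1% in tumour 15. Nfia supplied 15.6% ± 0.72, with its lowest share, 14.4%, also in tumour 8. Nfic supplied 10.1% ± 0.95, from 9.22% in tumour 1 to 11.6% in tumour 8. The share of Nfix thus moved by less than 2 percentage points over the tumours, and tumour 8 held the highest shares of Nfix and Nfic and the lowest of Nfia and Nfib. The shares depend on the transcripts in use, which were not measured: with the longest annotated transcript as length, Nfix and Nfib supplied 48.4% and 30.6%, and with no length subtracted 36.9% and 38.8%.

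**Figure D2:**
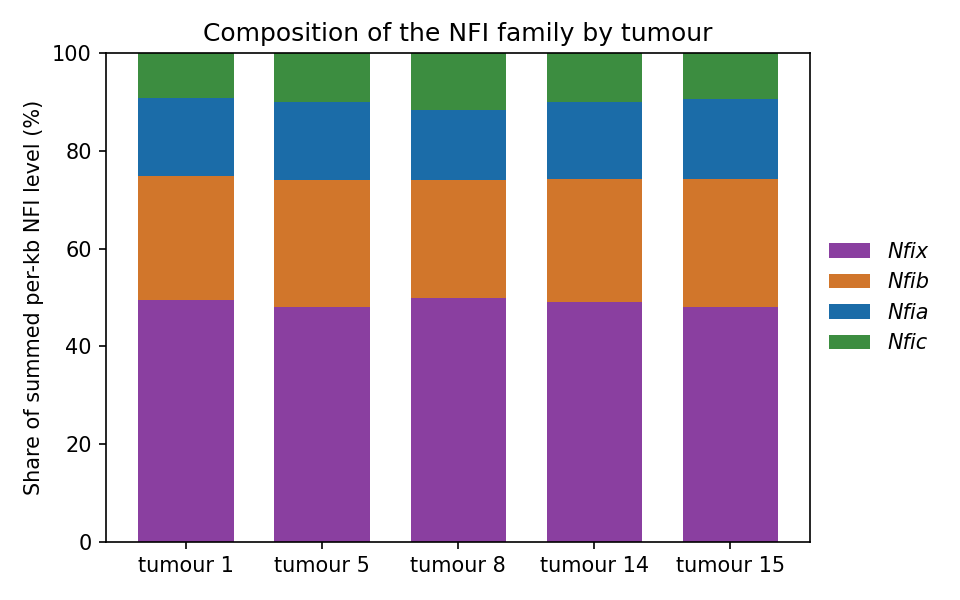
Composition of the NFI family in each tumour. Each bar stacks the shares (in percent of the summed linear level per kilobase of exon) of Nfix, Nfib, Nfia and Nfic from bottom to top; Nfix supplies between 48.0% and 49.9% in the 5 tumours.

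Differences between members were taken within each tumour on the per-kilobase scale, and all 6 pairs were tested. Nfix exceeded Nfib by 0.97, 0.89, 1.06, 0.96 and 0.88 in tumours 1, 5, 8, 14 and 15, a mean of 0.95 ± 0.07 (SD, n = 5) or 1.93-fold. Nfib exceeded Nfia, the other member on chromosome 4, by 0.67, 0.70, 0.73, 0.69 and 0.68, a mean of 0.70 ± 0.02. This was the steadiest difference of the 6 pairs, with a range of 0.06 over the tumours. Nfia exceeded Nfic by 0.79, 0.66, 0.31, 0.62 and 0.79, a mean of 0.63 ± 0.20. Tumour 8 held the smallest gap between Nfia and Nfic, and this pair varied most, with a range of 0.48.

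Across wider gaps, Nfix exceeded Nfia by 1.65 ± 0.09 and Nfic by 2.28 ± 0.12, and Nfib exceeded Nfic by 1.33 ± 0.17. Each of the 6 differences kept its sign in 5 of 5 tumours and exceeded the spread between tumours. By the exact two-sided sign-flip permutation test each gave p = 0.063, adjusted 0.063 over the 6 pairs by Benjamini-Hochberg, which is the smallest p that 5 tumours allow. None can therefore pass 0.05. The lead of Nfix over Nfib rests on the length correction: without it the difference was -0.073 ± 0.070 and above 0 only in tumour 8. By the exact sign-flip permutation test this gave p = 0.125, adjusted 0.125 over the 6 pairs. The sizes of other differences depend on the length too: Nfib minus Nfia was 1.22 with the longest annotated transcript and 1.15 with no length. With no length, Nfib minus Nfic was 2.50, Nfia minus Nfic 1.35 and Nfix minus Nfia 1.08, all with the same sign as before.

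**Figure D3:**
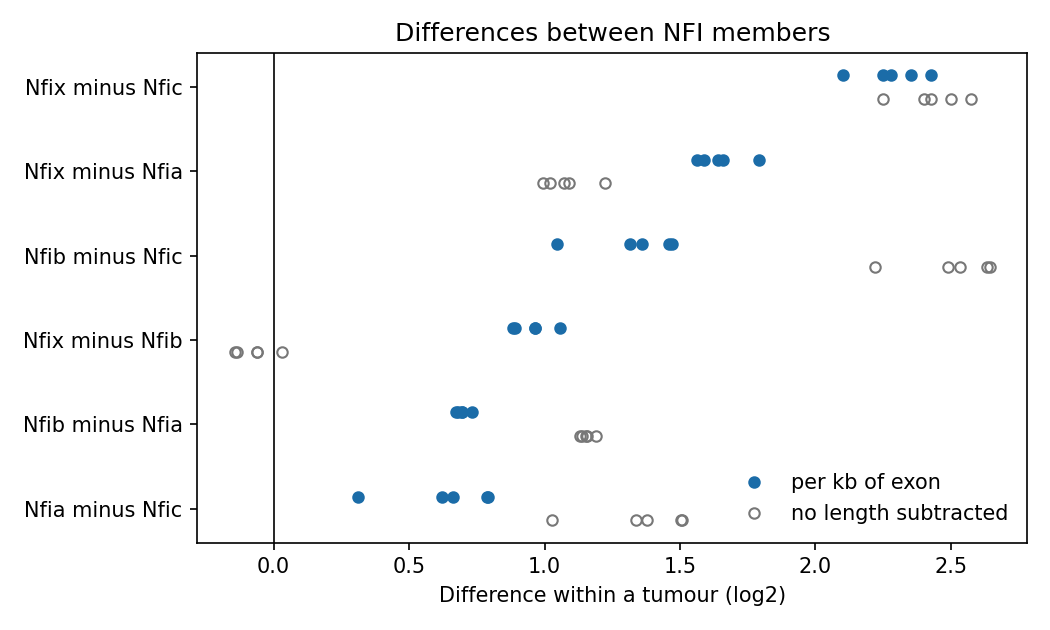
Differences between NFI members within each tumour, in log2 units, for the 6 pairs. Filled points are per kilobase of exon and open points have no length subtracted, with 1 point per tumour; Nfix minus Nfib lies between 0.88 and 1.06 per kilobase and between -0.14 and 0.03 without length.

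The spread of the NFI genes between the tumours was ordinary for the table. None of the 4 members ranged over 2-fold (0 of 4), where 3.79% of the 13691 genes averaging 5 or more did. None ranged over 1.5-fold either, against 14.7% of those genes. For 4 genes, 0 is near both shares and does not set the family apart. By SD, Nfib, Nfia, Nfix and Nfic stood at percentiles 28.5, 35.3, 46.2 and 73.4 of those genes. Nfib spanned 1.13-fold from its lowest to its highest tumour, Nfia 1.14-fold, Nfix 1.20-fold and Nfic 1.39-fold. The SDs of Nfib, Nfia and Nfix (0.08, 0.09 and 0.10) lay below the median SD of 0.11 over those genes, and that of Nfic (0.17) above it. Genes of high level vary less: the 1021 genes averaging 12 or more had a median SD of 0.09, with Nfia and Nfib at or below it and Nfix and Nfic above. The SD of Nfix rests on tumour 15 and was 0.04 without it. By the median absolute deviation, scaled to match an SD, Nfix stood at 0.07 and Nfic at 0.11.

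**Figure D4:**
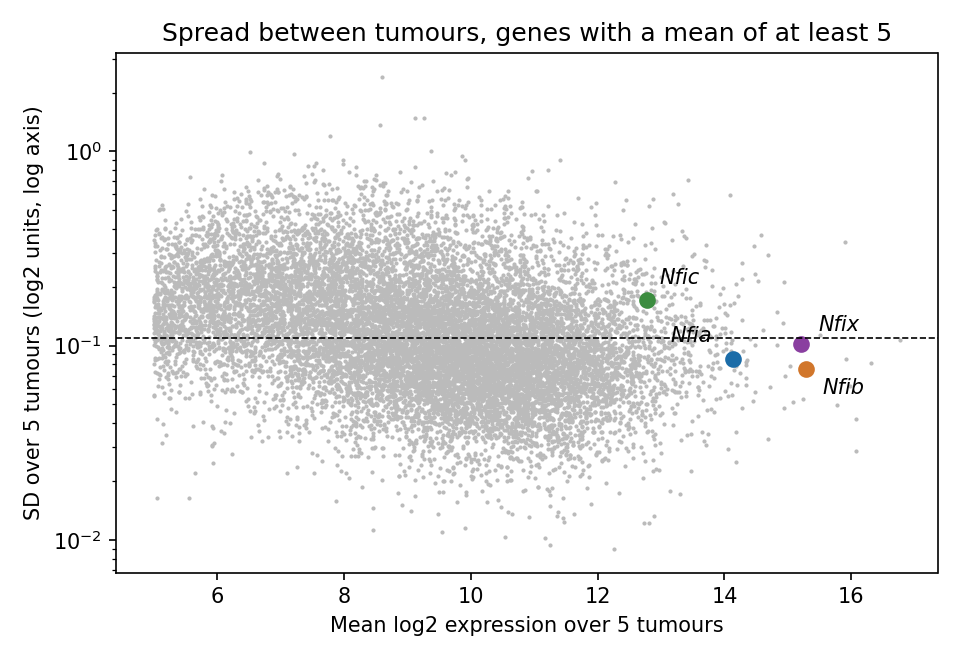
SD over the 5 tumours (log axis, log2 units) against mean log2 expression, for the 13691 genes averaging 5 or more (grey) and the NFI genes (coloured). The dashed line is the median SD of 0.11; Nfic lies above it at 0.17 and the other members below it.

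Tumour 15 was the lowest of the 5 for Nfib, Nfic and Nfix (3 of 4 members), where 22.9% of genes averaging 5 or more were lowest there. Nfia was lowest in tumour 8, at 14.04 against 14.05 in tumour 15. Tumour 1 was the highest for Nfia, Nfib and Nfix, against 20.2% of genes, and tumour 8 for Nfic, against 18.5%. On the per-kilobase scale the summed family was 13.44, 13.38, 13.39, 13.41 and 13.22 in tumours 1, 5, 8, 14 and 15 (log2), a mean of 13.37 ± 0.09 and a span of 1.16-fold. Without tumour 15 its SD fell from 0.09 to 0.03. In bulk samples such as these, fewer cells of a type and less RNA per cell cannot be told apart.

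Markers of the granule lineage and of other cell types were set beside the NFI levels. The lowest of the 5 fixed markers of granule neuron progenitors, Atoh1, ran from 8.00 to 9.49. Over the 14 marker lists the lowest value was 4.70, for the choroid plexus marker Kcne2. Column medians lay between 8.51 and 8.58. Without counts no detection limit could be set, so a low value does not show that a cell type was present. Several of these cell types express NFI genes. In tumour 15, where the family was lowest, microglia and macrophage markers were lowest for 7 of 7 genes, against the 22.9% of all genes (summed level 12.72, against up to 13.57 in tumour 5). Neural stem cell markers were highest there for 3 of 4 genes, against 21.4% (summed level 11.95, against a lowest of 11.28). Pericyte and fibroblast markers were also highest there, for 4 of 5 genes (summed level 14.80, against 13.86 to 14.50 in the other tumours). Astrocyte and Bergmann glia markers summed to 15.31 in tumour 15, within a range of 15.08 to 15.47, and granule progenitor markers to 15.87, within 15.86 to 15.97. Zic1 and Zic2 weigh most in the progenitor sum. Of its 5 genes, these 2 were lowest in tumour 15, while 1, Atoh1, was highest there at 9.49. Markers of mature granule neurons were lowest there for 3 of 5 genes, against 22.9%, and highest for 1 (summed level 13.17, within 12.87 to 13.27). In tumour 8, where Nfic was highest and Nfia lowest, markers of differentiating granule neurons were lowest for 4 of 5 genes, against 22.6%. The summed level of these markers was 15.97 there, against 16.26, 16.27, 16.14 and 16.065 in tumours 1, 5, 14 and 15. In tumour 1, where Nfia, Nfib and Nfix were highest, oligodendrocyte markers were lowest for 6 of 6 genes and immediate early genes for 5 of 5, against 16.9% of all genes. Their summed levels there were 14.39, against up to 15.80 in tumour 5, and 15.70, against up to 16.32 in tumour 8. Of the 5 markers of oligodendrocyte precursors, 4 had their top value in tumour 1, against the 20.2% of all genes (summed level 14.41, against a lowest of 13.86). The part of these cell types in the NFI levels was not tested.

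Among all other genes with a mean of at least 5, likeness to each member was measured as the root mean square (RMS) difference between values centred on the gene's mean over the 5 tumours. Nfib ranked 17 of 13690 in likeness to Nfia, with an RMS difference of 0.02, and Nfia ranked 16 in likeness to Nfib. A gene with no variation at all would lie 0.08 from Nfia and 0.07 from Nfib. Nfix lay 0.06 from Nfib, at rank 1408. From Nfia it lay 0.079, at rank 2439, slightly further than a gene with no variation (0.076). Nfic lay 0.18 from Nfia and 0.15 from Nfib, further than the median gene from each (0.12 for both). Its distance from Nfix was 0.11, nearer than the median gene (0.13) but further than a gene with no variation (0.09). Seen from Nfic, whose own spread was larger, the median gene lay at 0.18 and a gene with no variation at 0.15. Nfix, the nearest member, ranked 1251.

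The genes nearest to Nfia were Rimklb, an amino acid ligase gene, Psmg3, a proteasome assembly gene, and 4933421O10Rik, each at 0.01. Nearest to Nfib were Septin11, a cytoskeletal GTPase gene, Klc1, a kinesin light chain gene, and H13, a signal peptide peptidase gene, also at 0.01. Nearest to Nfix were Armc7 (0.01), Eda2r, a receptor gene of the tumour necrosis factor family (0.02), and Helq, a DNA helicase gene (0.02). Cry1, a circadian clock repressor gene, and Coq8a, a coenzyme Q synthesis gene, were among the nearest to Nfic, each at 0.02. With 5 tumours, many genes of small spread lie near any member of small spread.

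Genes linked to NFI factors in granule neurons covered a wide range of levels. Of the 9 genes in this list, 2 ranged over 2-fold, against the 3.79% of all genes, and the median SD was 0.18 against 0.11. Cntn2, which encodes the axonal adhesion protein TAG-1, was the highest per kilobase at 11.05 ± 0.22 (SD, n = 5), between Nfib and Nfia. On the deposited scale it was 14.39, 14.56, 14.01, 14.29 and 14.11 in tumours 1, 5, 8, 14 and 15. Cdh2, which encodes N-cadherin, followed at 9.36 ± 0.08 per kilobase. Wnt7a, a secreted ligand of granule neuron axon remodelling, was the lowest at 4.38 ± 0.13.

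The 2 genes that ranged over 2-fold were both receptor subunits of mature granule neurons. Gabra6, a GABA-A receptor subunit and a much-studied NFI target, was 6.31, 7.79, 6.62, 6.87 and 6.14 in tumours 1, 5, 8, 14 and 15, a span of 3.14-fold. Grin2c, an NMDA receptor subunit, was 7.09, 8.73, 7.58, 7.89 and 7.09, a span of 3.12-fold. Both were highest in tumour 5, where no NFI member was highest or lowest. In tumour 15, where the NFI family was lowest, Gabra6 was also lowest and Grin2c lay close to its lowest value. Grin2c was lowest in tumour 1, where Nfia, Nfib, Nfix and the family sum were highest. In that tumour Gabra6, at 6.31, was lower than in tumours 5, 8 and 14. Any link between these levels and those of NFI was not tested. Without tumour 5 neither Gabra6 nor Grin2c ranged over 2-fold (0 of 9 genes). Markers of several other cell types were also highest in tumour 5, against 24.1% of all genes: oligodendrocyte markers for 6 of 6 genes (summed level 15.80, against 14.39 to 15.43 in the other tumours) and choroid plexus markers for 5 of 5 (14.76, against 13.09 to 13.26). Microglia and macrophage markers were highest there for 7 of 7 genes (13.57, against 12.72 to 13.00) and endothelial markers for 4 of 5 (12.57, against 11.85 to 12.24). In tumour 5 the markers of mature granule neurons were highest for 4 of 5 genes, with a summed level of 13.27 against 12.87 to 13.17 in the other tumours. Gabra6 and Grin2c are themselves among those markers, and the part of all these cell types in the result was not tested. Of all 9 genes, 5 were highest in tumour 5, against 24.1% of genes with a mean of at least 5.

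The promoters of Cntn2 and Gabra6 are shown because Cntn2 had the highest level of the list per kilobase and Gabra6 the widest range, 3.14-fold against 3.12-fold for Grin2c. They are the 250 bases before the RefSeq transcript start on GRCm38.p6, 5′ to 3′ along the gene, with the NFI core TTGGC, on either strand, in capitals. In GENCODE M21 the Cntn2 gene begins further upstream, at 132543256, so its window lies inside the gene as annotated there.
Cntn2 (chr1:132542941-132543190, minus strand): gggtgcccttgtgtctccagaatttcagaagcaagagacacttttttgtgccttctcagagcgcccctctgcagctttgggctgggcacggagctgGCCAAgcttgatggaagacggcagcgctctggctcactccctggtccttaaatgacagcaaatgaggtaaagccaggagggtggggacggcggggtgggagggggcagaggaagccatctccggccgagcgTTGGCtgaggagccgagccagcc
Gabra6 (chr11:42321073-42321322, minus strand): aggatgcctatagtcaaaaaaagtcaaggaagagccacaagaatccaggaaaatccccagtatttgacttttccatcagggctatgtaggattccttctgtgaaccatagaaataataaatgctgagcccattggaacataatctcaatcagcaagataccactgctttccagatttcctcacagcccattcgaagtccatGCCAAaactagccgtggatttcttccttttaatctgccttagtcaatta
Cntn2 had 2 cores, starting 154 and 23 bases before the RefSeq transcript start, and Gabra6 had 1, at 49 bases. The core is short, and 41.5% of all 32851 promoter windows of this length held it on either strand. Counted by gene, 45.3% of 27025 genes had it in at least 1 window. In the 2 other lists of NFI-linked genes, described below, the share was also higher. It was 3 of 5 astroglial genes with a window, and 3 of 4 in the list of regulators and partners. Of the granule list genes with a window, 6 of 8 had it. The full palindrome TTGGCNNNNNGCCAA, which contains the core, occurred in 0.0365% of all windows, in 0.0444% of all genes and in none of these 8 genes. Windows for Nfia, Nfic and Nfix numbered 6. Of these, 2 held the core, and none held the palindrome or the GLI site TGGGTGGTC, searched on both strands and present in 0.225% of all windows.

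Genes linked to NFI factors in astroglia stood at middle to high levels. None of these 7 genes ranged over 2-fold, against 3.79% of all genes with a mean of at least 5. Of the 7, 4 ranged over 1.5-fold, against 14.7%, and the median SD was 0.23. That median rests on 2 tumours, being 0.11 without tumour 5 and 0.14 without tumour 1. Gfap, the intermediate filament gene of astrocytes, was the highest per kilobase at 10.29 ± 0.26 (SD, n = 5). On the deposited scale it was 11.95, 12.38, 12.60, 12.32 and 12.56 in tumours 1, 5, 8, 14 and 15, lowest in tumour 1. Fabp7, a fatty acid binding protein gene of radial glia, stood at 10.20 ± 0.37 per kilobase. Its deposited values were 10.59, 10.18, 10.18, 10.59 and 11.07, highest in tumour 15. Mmd2, a target shared by NFIA and SOX9 in early gliogenesis, was the lowest per kilobase at 7.84 ± 0.06. Of these 7 genes, 4 were highest in tumour 15, against 21.4% of genes with a mean of at least 5, whereas 3 of the 4 NFI members were lowest there.

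Regulators and partners of NFI factors, and other genes they regulate, were described last. None of these 7 genes ranged over 2-fold, against 3.79% of genes with a mean of at least 5. Past 1.5-fold was 1 gene, against 14.7%. Both counts are near those shares. The median SD was 0.14, against 0.11 over those genes. Sox9, which induces Nfia at the onset of gliogenesis, was the highest per kilobase at 9.77 ± 0.32 (SD, n = 5). Its deposited values were 12.05, 11.75, 12.20, 11.73 and 11.37 in tumours 1, 5, 8, 14 and 15. Sox9 was thus highest in tumour 8 and lowest in tumour 15, as Nfic was, and Nfib and Nfix were also lowest in tumour 15. Of the 7 genes, 2 were lowest in tumour 15, against 22.9% of genes with a mean of at least 5. Another 2 were highest there, against 21.4%. Ski, a co-repressor that binds NFI proteins, stood at 9.56 ± 0.08 per kilobase. Insc, a spindle orientation gene regulated by NFIX in progenitors of the forebrain, was the lowest at 4.57 ± 0.11.

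**Figure D5:**
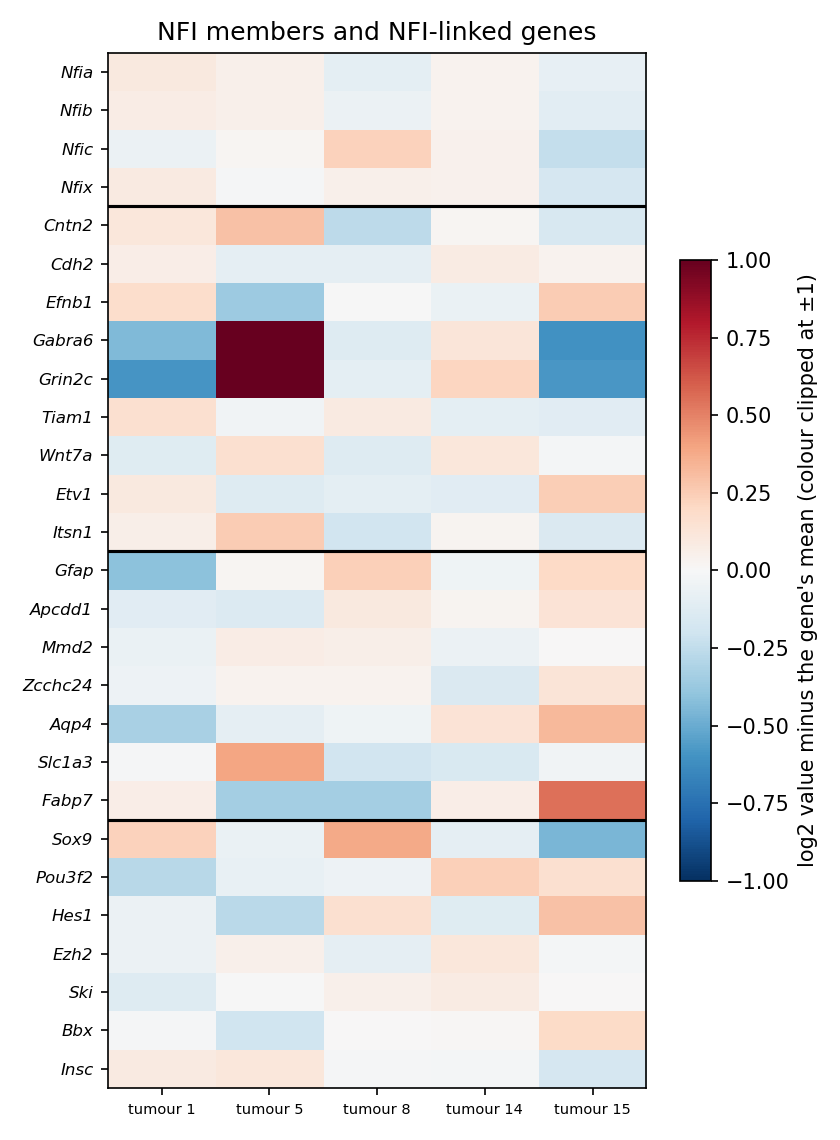
Deviation of each gene's deposited log2 value from its mean over the 5 tumours. The NFI members form the top block. Below them are the genes of granule neurons, those of astroglia, and the regulators, partners and other regulated genes. Colour runs from blue (below the mean) to red (above) and is clipped at ±1; Gabra6 and Grin2c in tumour 5 stand out, while the NFI rows stay pale.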

How the data were processed

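The deposited table holds log2 values that the authors made for 7 columns, of which the 5 named in the labels were used and 2 that match no sample were not. They are read as DESeq2 regularised-log values, from the table's short name in the labels and the tools in the submitters' processing notes (STAR 2.4.1, featureCounts, Subread 1.4.6, DESeq2, builds mm10 and GRCm38). How they were transformed, annotated, filtered and counted by strand is not given in the sources used here. A regularised log removes differences in library size and shrinks weakly expressed genes towards their mean. Without counts, depth is unknown, and intervals for counting error could not be set. Column medians lay between 8.51 and 8.58, and no library pair shared a value at a gene with a mean of at least 5.

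Exon lengths (all exons of a gene merged) and positions came from GENCODE M21, in which 97.5% of symbols matched exactly 1 gene. Members, gene lists and tests were chosen with earlier results of these data known. Named genes are the 4 members, list genes ranging over 2-fold or with the 2 highest or the lowest per-length means, and the 3 genes nearest each member; 1 gene that the rule names is not reported here. Functions were tested on simulated data. Computations used Python 3.11.15, numpy 2.4.6 and pandas 2.3.3. Alternatives were no length, the longest transcript, other limits and summaries, centred columns and each tumour left out.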

Additional observations from a re-analysis of the deposited data

Results flagged for a closer look

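The summed per-kilobase level of the NFI family in tumour 15, 13.22 on the log2 scale, lay far from the other 4 tumours (13.38 to 13.44) for the width of the group by Dixon's criterion. It was the only one of 38 values or differences checked, and chance alone marks about 1 in 20 groups. Tumour 15 also gave the lowest sum with no length subtracted, with the longest annotated transcript as length and with centred columns.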

How the results depend on the processing

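No paired analysis was possible because the labels put all samples in 1 group. Of the 193 alternative values, 180 counted as unchanged. This meant within the spread between tumours, within 1.5 times a count, or on the same side of 0 and of the test's threshold. Much of this was fixed in advance. Leaving out 1 of 5 tumours cannot move a mean by a full SD, and no pair can pass 0.05. A pair difference that kept its sign counted as unchanged whatever its size. The count is therefore no measure of how stable the results are. Nfix minus Nfib turned to -0.073 with no length subtracted. With no length subtracted the shares became 17.4% for Nfia, 38.8% for Nfib, 6.87% for Nfic and 36.9% for Nfix. With the longest annotated transcript as length they were 13.2% for Nfia, 30.6% for Nfib and 7.90% for Nfic. At a limit of 1.5-fold the counts rose from 0 to 4 of the astroglial genes and from 0 to 1 of the regulators and partners. The share of all genes averaging 5 or more past that limit was 14.7%. With each tumour left out in turn, the granule neuron genes ranging over 2-fold numbered 0 to 2, with 0 only without tumour 5. No depth could be set beside any value. The alternatives for the family sum and for members lowest in tumour 15 (3, or 4 with centred columns) were chosen after seeing the data.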

Other observations

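Other annotated genes lie within the NFI genes, mostly on the opposite strand, and the strand setting of the counting is not known. E130114P18Rik, which runs the other way across the start of Nfia, averaged 11.28 ± 0.13 (SD, n = 5), was highest in tumour 1 and lowest in tumour 5, and shares 4 exonic bases with Nfia. Gm11266, an antisense gene inside Nfib with no shared exonic base, averaged 8.79 ± 0.14, from 8.64 in tumour 15 to 9.02 in tumour 5. Lyl1, a haematopoietic transcription factor gene inside the Nfix locus that shares 4 exonic bases with it, averaged 6.35 ± 0.23, from 6.01 in tumour 15 to 6.63 in tumour 5. Gm16104, an antisense gene that shares 72 exonic bases with Nfic, averaged 4.37 ± 0.05.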
